A study of Cavia porcellus with 30 samples.

Results

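The comparison described here set cultured renal proximal tubular epithelial cells of the guinea pig that had been exposed to 40 µM mercuric chloride for 24 h against cells kept in vehicle for the same 24 h. Its members were chosen by the agent and time labels alone, 5 libraries of the high dose and 5 of vehicle, which is 10 of the 30 libraries of the series. The whole series holds poly-A RNA-seq after vehicle, 30 µM or 40 µM mercuric chloride for 12 h or 24 h, with 5 libraries in each of 6 groups. The 10 libraries of the 40 µM and vehicle groups at 12 h, and the 5 of the 30 µM group at 24 h, are used below only beside the 24 h response. All groups were Hartley guinea pig cells, isolated from the kidneys of animals 6 to 8 weeks old. The cells were first grown to a monolayer and replated, then kept in maintenance medium during the last 48 h before exposure, and vehicle was that medium. The labels do not say whether the libraries of a group came from separate animals or separate cultures, so p-values measure the spread between these libraries, which may be technical. The files give Ensembl transcript identifiers without gene names, so defining markers of the proximal tubule or of other kidney cells could not be checked and the features below are transcripts.

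The proximal tubule is the first segment of the nephron after the glomerulus. Its cells reclaim glucose, amino acids, ions and small proteins from the filtrate, and they secrete organic anions and cations through transporters. They take up mercuric ions largely as thiol conjugates, and mercury binds the thiol groups of glutathione and of proteins. Injury of these cells is a hallmark of inorganic mercury poisoning, and induction of metallothioneins, heme oxygenase and heat shock proteins is a textbook feature of the response to the metal. Which of the transcripts below belong to those genes could not be read from the files.

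Library totals lay between 21651452 and 33997378 estimated counts in vehicle and between 24370900 and 30701551 at 40 µM. At least 1 count was held by 19039 ± 176 transcripts (SD, n = 5) in vehicle and by 19020 ± 140 at 40 µM. The 10 most abundant transcripts took 9.95% to 10.2% of the counts in the vehicle libraries. They took 9.48% to 10.2% in 4 libraries of the exposed group and 12.4% in replicate 5. No pair of replicates agreed within sampling noise, with a chi-square per degree of freedom of 5.64 to 45.0 over the 20 pairs. In bulk libraries fewer cells that express a transcript and less of it per cell cannot be told apart.

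At 24 h, 4608 of 16672 tested transcripts (27.6%) differed between 40 µM and vehicle at an edgeR quasi-likelihood adjusted p under 0.1. Of these, 2269 (13.6% of those tested) were higher after exposure, the risers, and 2339 (14.0%) were lower, the fallers. The numbers were near each other, and so was the typical size of a change. The median log2 fold change was 0.28 in size in either direction, with an interquartile range of 0.17 to 0.56 for risers and of 0.18 to 0.47 for fallers. The directions differed in the upper range of sizes. Only 10% of the risers had a log2 fold change above 1.12, and 10% of the fallers one above 0.73 in size.

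By size class, 1287 risers (56.7%) and 1326 fallers (56.7%) changed by less than 0.32 log2 units. A change from 0.32 to 0.58 log2 units (1.5-fold) was held by 438 risers (19.3%) and 612 fallers (26.2%), and a change of 1.5- to 2-fold by 263 (11.6%) and 298 (12.7%). Above 2-fold the order turned. From 2- to 4-fold there were 231 risers (10.2%) and 96 fallers (4.10%), and at 4-fold or more 50 risers (2.20%) and 7 fallers (0.299%). In all, 281 transcripts (1.69% of those tested) were at least 2-fold higher and 103 (0.618%) at least 2-fold lower. In 3 risers every vehicle library had at most 3 counts, and with their change set at its lower bound the median of 0.28 and the count of 281 stayed as they were. The 2-fold counts depended on the scale. They were 139 risers and 49 fallers on log2(TPM + 1), where TPM is a share of all transcripts corrected for transcript length, and 381 and 205 with DESeq2.

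**Figure D1:**
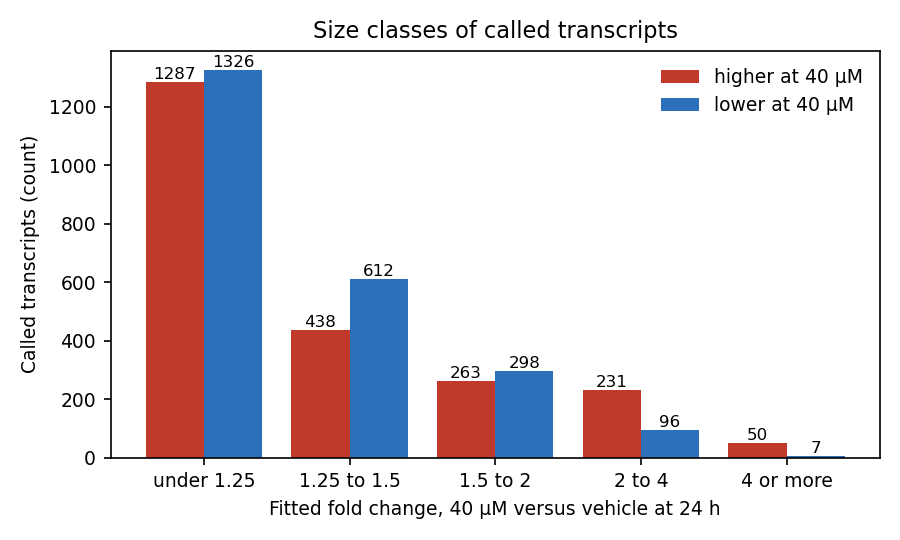
Number of transcripts called at an adjusted p under 0.1 (vertical axis, count) in 5 classes of fitted fold change between 40 µM mercuric chloride and vehicle at 24 h (horizontal axis), with 1 bar for each direction. The bars are of near equal height in the class of the smallest changes (1287 and 1326), and at 4-fold or more the bar of risers stands at 50 and that of fallers at 7.

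The bars of the size class plot show the crossing between the smaller and the larger changes. Groups of 5 libraries did not overlap in 1445 of the 2269 risers (63.7%) and in 1555 of the 2339 fallers (66.5%). Among all tested transcripts every exposed library lay above every vehicle library in 8.86%, and below in 9.52%.

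The fallers lay at higher levels in unexposed cells than the risers. The median level per vehicle library was 10.5 ± 0.150 TPM (SD, n = 5) over all tested transcripts, 15.2 ± 0.287 TPM over the risers and 23.3 ± 0.238 TPM over the fallers. Transcripts that changed at least 2-fold had low levels, with a median of 1.61 ± 0.125 TPM for risers and 2.60 ± 0.131 TPM for fallers. These are levels of the unexposed cells, and the vehicle libraries also enter the fold change.

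Among the 1933 tested transcripts under 1 TPM in vehicle, 9.00% were risers and 2.64% fallers. Of the 6208 from 1 to 10 TPM, 11.8% rose and 9.95% fell. From 10 to 100 TPM, 15.4% of 7216 rose and 17.8% fell. At 100 TPM or more, 19.4% of 1315 rose and 29.2% fell. Both shares thus went up from class to class, and fallers outnumbered risers in the 2 highest classes.

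The depth behind these classes differed widely. The median transcript had 25.4 counts per library under 1 TPM and 4837 at 100 TPM or more, and the median standard error of the log2 fold change was 0.40 and 0.04. The median change of the risers was 1.16 log2 units under 1 TPM, 0.46 from 1 to 10, 0.20 from 10 to 100 and 0.19 at 100 TPM or more. For the fallers it was -0.98, -0.46, -0.23 and -0.23 in the same order. The median change of the abundant risers was thus smaller than the standard error in the lowest class, and the part of this error in the shares was not tested. A transcript near 0 in vehicle can pass the filter on low counts through the exposed libraries alone, so the shares of the lowest class are given only as a description.

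The order of the classes was also read with other levels. With those of the 5 vehicle libraries at 12 h, which do not enter the comparison, 8.23% of the transcripts under 1 TPM rose and 3.04% fell. At 100 TPM or more 19.7% rose and 28.7% fell. With the mean of all 10 libraries at 24 h, which do enter it, as the level, the gap narrowed in the lowest class, where 5.70% rose and 3.74% fell, and 21.5% rose and 27.0% fell in the highest.

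**Figure D2:**
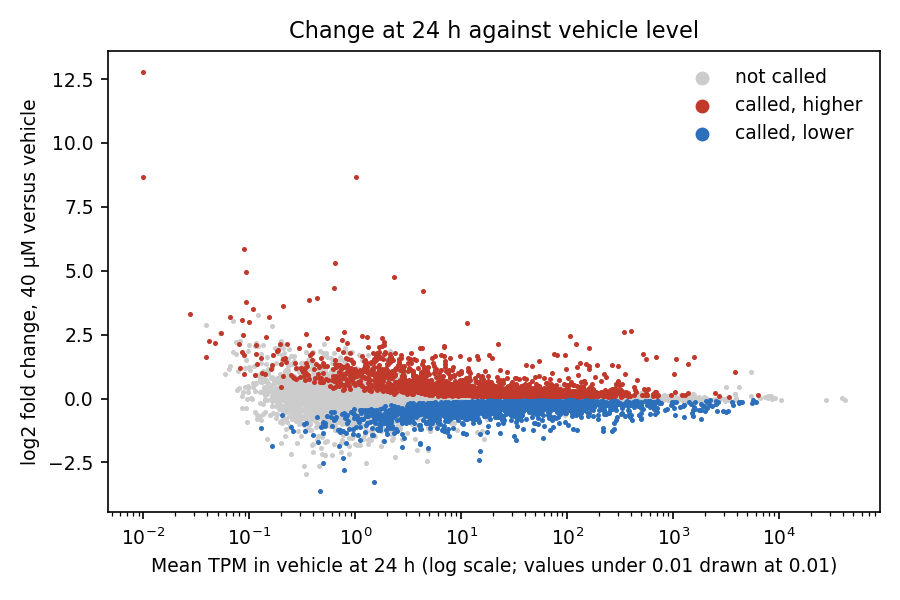
Fitted log2 fold change between 40 µM and vehicle at 24 h (vertical axis) against the mean level in the 5 vehicle libraries (horizontal axis, TPM, log scale), with 1 point for each of the 16672 tested transcripts, coloured by whether it was called higher, called lower or not called. The spread of the points narrows with level, and the called points with the largest changes lie mostly above 0 and toward the left.

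The plot of change against vehicle level shows where the larger changes lay. Of the 281 risers of at least 2-fold, 102 were under 1 TPM in vehicle, 138 between 1 and 10, 21 between 10 and 100, and 20 at 100 TPM or more. Of the 103 fallers of at least 2-fold, 25, 51, 20 and 7 lay in these classes.

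The abundant transcripts with a change of at least 2-fold were few. The 20 such risers at 100 TPM or more summed to 12064, 12943, 11905, 12034 and 12100 TPM in the vehicle libraries and to 35070, 35366, 35888, 33112 and 32114 TPM in the exposed ones. The means were 12210 ± 417 and 34310 ± 1616 TPM (SD, n = 5). All exposed libraries lay far above all vehicle libraries, which the choice of these transcripts requires. Their log2 fold changes ran from 1.03 to 2.64 and their lengths from 189 to 3616 bases, with a median of 1117 bases against 2600.5 bases over all tested transcripts. All 20 were also called higher at 12 h, where no library is shared, and 19 of them at 2-fold or more. Over all transcripts tested at 12 h these shares were 24.9% and 3.81%.

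The 7 abundant fallers summed to 1305, 1250, 1346, 1332 and 1320 TPM in vehicle. In the exposed libraries they summed to 564, 551, 576, 599 and 511 TPM, with means of 1311 ± 37.3 and 560 ± 32.8 TPM. Their log2 fold changes lay between -1.28 and -1.03. All 7 were called lower at 12 h as well, 6 of them at 2-fold or more, against 26.1% and 2.48% of all tested transcripts. The estimates were whole in every library for 11 of the 20 risers and 4 of the 7 fallers, and the others share reads with another transcript.

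The median length was 2938 bases (interquartile range 1791 to 4483) for risers, 2712 bases (1657 to 4168) for fallers and 2600.5 bases (1512 to 4199) for all tested transcripts. Risers of at least 2-fold were shorter, with a median of 2318 bases, and fallers of at least 2-fold had a median of 2754 bases.

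The share called was lowest among short transcripts in both directions. Under 1 kb, 7.63% of 2057 tested transcripts rose and 11.8% fell. From 1 to 2 kb, 12.3% of 4160 rose and 13.0% fell, and from 2 to 4 kb 14.8% of 5892 rose and 15.5% fell. At 4 kb or more the order was turned, with 16.0% of 4563 higher and 14.1% lower. The median log2 fold change over all tested transcripts of a class, called or not, moved only from -0.01 under 1 kb to 0.02 at 4 kb or more.

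Depth moved with length too, from a median of 184 counts per library under 1 kb to 649 at 4 kb or more. Within the lowest of 3 equal groups by level, the share of risers went from 3.52% under 1 kb to 10.3% at 4 kb or more, and that of fallers from 4.77% to 8.46%. In the middle group risers went from 6.65% to 18.0% and fallers from 8.45% to 14.1%. In the highest they went from 9.61% to 23.8% and from 16.0% to 25.9%. The share of risers thus went up with length in each group. That of fallers was 15.3% at 2 to 4 kb in the middle group and so did not rise through the longest class there. A longer transcript also has more counts at the same TPM, and the part of depth in these shares was not tested.

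**Figure D3:**
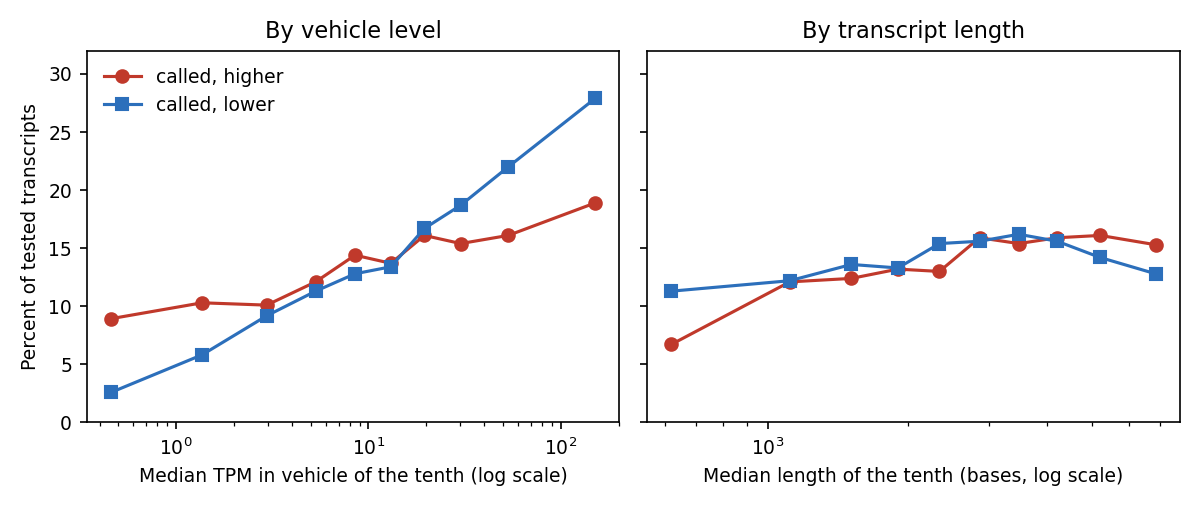
Percent of tested transcripts called higher and called lower at 24 h (vertical axes) in 10 equal groups of the tested transcripts by mean level in vehicle (left, TPM, log scale) and by length (right, bases, log scale), with each point at the median of its group. By level the share of fallers climbs from 2.58% to 27.9% and crosses that of risers, which climbs from 8.93% to 18.9%, and by length the share of risers climbs from 6.71% to 15.3%.

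The plot by 10 equal groups resolves these classes. Risers outnumbered fallers in each of the 6 lowest groups by level, and fallers outnumbered risers in each of the 4 highest. By length, the share of risers stayed between 15.3% and 16.1% from the median length on, while that of fallers reached 16.2% in the seventh group and was 12.8% in the longest.

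The mean transcript length weighted by TPM, a measure of the whole library, was 1699 ± 9.37 bases in vehicle and 1680 ± 23.5 bases at 40 µM (exact permutation test, two-sided, p = 0.151, 0.528 adjusted over 7 library measures). Transcripts of 4 kb or more held 9.37%, 9.41%, 9.68%, 9.36% and 9.65% of the TPM in the vehicle libraries. They held 8.86%, 8.78%, 8.94%, 9.64% and 8.95% in the exposed libraries. Of the exposed libraries 4 lay below all vehicle libraries, and replicate 4 lay within the vehicle range. The difference of -0.459 percentage points did not pass the correction (exact permutation test, two-sided, p = 0.0317, adjusted p = 0.222), where 5 against 5 libraries cannot give a p below 0.00794. The TPM share of transcripts under 1 kb was 45.2 ± 0.222% in vehicle and 45.3 ± 0.450% at 40 µM.

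The share called was higher where estimates were whole. Of 6344 tested transcripts with whole estimates in all 30 libraries, 34.0% were called (15.9% higher and 18.1% lower), and of the 10328 with a fractional estimate 23.7% (12.2% and 11.5%). The former had a median of 538 counts per library and a median standard error of 0.07 log2 units, the latter 368 counts and 0.10. Levels of the latter are less certain, since a near copy may take some of their reads.

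The transcripts with the largest changes and whole estimates are given by identifier, the pair with the largest rise and the pair with the largest fall. Normalised read counts are in CPM, counts scaled to a common library total. ENSCPOT00000044307.1 (678 bases) measured 0.251, 0.327, 0.440, 0.233 and 0.351 CPM in the vehicle libraries at 24 h and 115, 153, 140, 123 and 156 CPM at 40 µM. The vehicle libraries held 6 to 15 counts each, so this transcript too met the mean count of the rule through its exposed libraries. The groups did not come near each other, and the fitted log2 fold change of 8.69 (SE 0.16) is given as a description with no test. At 12 h the log2 fold change was 10.86 (SE 0.20), and the difference, 24 h minus 12 h, was -2.19 log2 units (SE 0.54). This difference uses the same 24 h libraries, and vehicle libraries of 5 to 32 counts at 12 h. It is likewise given with no test.

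ENSCPOT00000047407.1 (1832 bases) was close to undetected in vehicle at 24 h, with 0.167, 0, 0.0587, 0.0388 and 0.211 CPM, which came from 13 counts over the 5 libraries. It measured 4.42, 5.65, 3.74, 4.23 and 11.2 CPM at 40 µM. Every exposed library was above every vehicle library, and replicate 5 was well above the other 4. The transcript reached the mean count that the rule asks for, and the filter on low counts, through its exposed libraries. Its fitted log2 fold change of 5.85 (SE 0.57), which lay between 5.48 and 6.36 with any 1 library left out, is therefore given as a description with no test. At 12 h it had 0 to 2 counts in each vehicle library and 252 to 461 in each 40 µM library, or 13.8 ± 3.32 CPM (SD, n = 5).

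ENSCPOT00000013715.3 (1494 bases) measured 3.47, 3.27, 4.82, 5.13 and 3.93 CPM in vehicle and 1.46, 0.766, 0.944, 0.741 and 1.38 CPM at 40 µM. The lowest vehicle library stood above the highest exposed one. The log2 fold change was -1.95 (SE 0.24, edgeR adjusted p = 0.000151), the largest fall under the rule, against -2.90 at 12 h. The difference, 24 h minus 12 h, was 0.94 log2 units toward a smaller fall (SE 0.32, edgeR adjusted p = 0.0417), a call that was lost on log2(TPM + 1), where the value was 0.40.

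ENSCPOT00000003087.3 (6574 bases) measured 8.18, 6.63, 8.16, 9.16 and 7.58 CPM in vehicle. It measured 2.83, 2.50, 2.76, 2.45 and 1.95 CPM at 40 µM, again with no overlap. The log2 fold change was -1.66 (SE 0.13, edgeR adjusted p = 3.53e-06) at 24 h and -2.89 at 12 h. The difference of 1.22 log2 units (SE 0.34, edgeR adjusted p = 0.0116) was likewise not called on log2(TPM + 1), where it was 0.23.

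**Figure D4:**
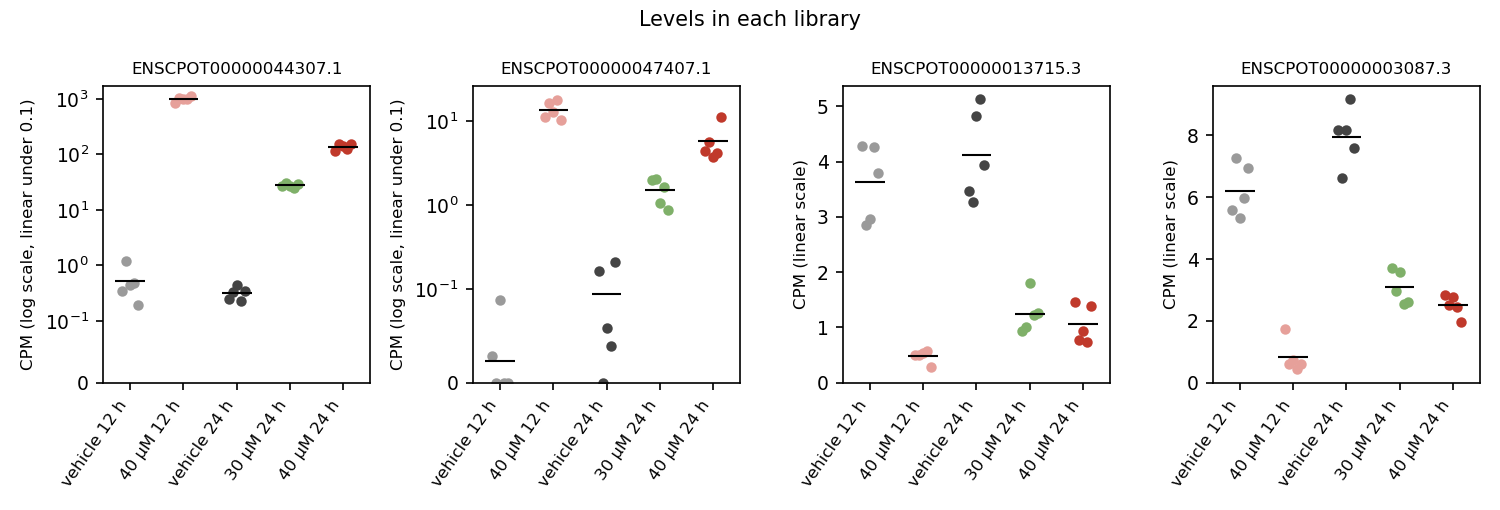
Normalised read counts (vertical axes, CPM) of the 4 transcripts in each library of 5 groups, vehicle and 40 µM at 12 h and vehicle, 30 µM and 40 µM at 24 h, with 1 point for each library. The scale is logarithmic for the risers, turning linear near 0, and linear for the fallers. For ENSCPOT00000044307.1 the 40 µM libraries at 24 h, at 115 to 156 CPM, lie between those of vehicle and those of 40 µM at 12 h.

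In the plot of levels by library the 30 µM group at 24 h stands between vehicle and 40 µM for both risers. ENSCPOT00000044307.1 averaged 28.0 ± 2.36 CPM (SD, n = 5) at 30 µM and 137 ± 18.1 CPM at 40 µM, a log2 difference of 2.30 (SE 0.10). ENSCPOT00000047407.1 averaged 1.54 ± 0.542 and 5.84 ± 3.07 CPM, a log2 difference of 1.92 (SE 0.36), and of 1.55 without 40 µM replicate 5. Both risers were chosen by these same 40 µM libraries, so their differences between the doses are given as descriptions with no test. A difference between the doses was not shown for the fallers, which these libraries chose too. It was -0.22 (SE 0.29, 95% interval 0.581- to 1.27-fold, edgeR adjusted p = 0.835) for ENSCPOT00000013715.3 and -0.30 (SE 0.17, 0.646- to 1.02-fold, edgeR adjusted p = 0.505) for ENSCPOT00000003087.3.

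The same rule was met by 646 risers and 767 fallers, and the 20 largest in each direction are given as ranges. The log2 fold changes of the 20 risers ran from 1.73 to 8.69 with a median of 2.20, and those of the 20 fallers from -1.95 to -1.14 with a median of -1.29. The risers had a median length of 1813 bases (189 to 4908) and the fallers of 3850.5 bases (603 to 9387). Of the risers 4 were under 1 kb and 2 at 4 kb or more, and of the fallers 3 and 10. The median vehicle level was 1.86 TPM for the risers and 7.52 TPM for the fallers, and 4 of each lay at 100 TPM or more. The rule's mean count can be met through the exposed libraries by a riser and through vehicle by a faller, so the choice itself enters this difference. All 20 fallers were also called lower at 12 h, where 26.1% of all tested transcripts were. Of the 20 risers, 12 were called higher there and none lower, against 24.9% higher over all tested transcripts. The difference between the directions was not tested.

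The question of what remained of the earlier response was addressed in libraries that the 24 h comparison does not share. At 12 h, 8550 of 16767 tested transcripts (51.0%) passed the test, with 4169 (24.9%) higher and 4381 (26.1%) lower after exposure. The share of higher calls was 48.8%, and 39.5% to 39.6% on the log2(TPM) scales. Changes of at least 2-fold were held by 638 (3.81%) of the tested transcripts in the former direction and 415 (2.48%) in the latter. These counts were 266 and 227 on log2(TPM + 1), 559 and 501 on log2(TPM + 0.1), and 1075 and 530 with DESeq2. Of the 4049 higher ones that were tested at 24 h, 1431 (35.3%) were again called higher and 128 were called lower. Of 4371 lower ones, 1673 (38.3%) were again called lower and 199 were called higher. The background for these shares is 13.6% of all tested transcripts for a rise at 24 h and 14.0% for a fall.

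By size of the 12 h change, the share called again is given over all members of a class, since some were too low at 24 h to pass the filter. Among transcripts higher at 12 h it was 27.1% for changes under 0.32 log2 units, 35.8% from there to 1.5-fold, 41.3% from 1.5- to 2-fold, 43.9% from 2- to 4-fold and 44.4% at 4-fold or more. Of the last class 71 of 187 transcripts, and of the one before it 44 of 451, were not tested at 24 h. Among those lower at 12 h the shares were 25.6%, 38.7%, 50.4%, 57.4% and 51.3%, the last of 39 transcripts. Of the 187 transcripts at least 4-fold higher at 12 h, 68 (36.4%) were still called at 2-fold or more at 24 h, and of the 39 at least 4-fold lower 9 (23.1%). Over all transcripts tested at 24 h these shares were 1.69% and 0.618%. Without the filter on low counts 80 of the 187 were. In that fit, which held 186 of the 187, their median change at 24 h was 1.12 log2 units, against 2.66 at 12 h over all 187. For the 39 the medians in the direction of the fall were 0.70 log2 units at 24 h and 2.45 at 12 h. These transcripts were chosen by their 12 h estimates and not by those of 24 h, and the part of this choice in the medians was not tested.

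**Figure D5:**
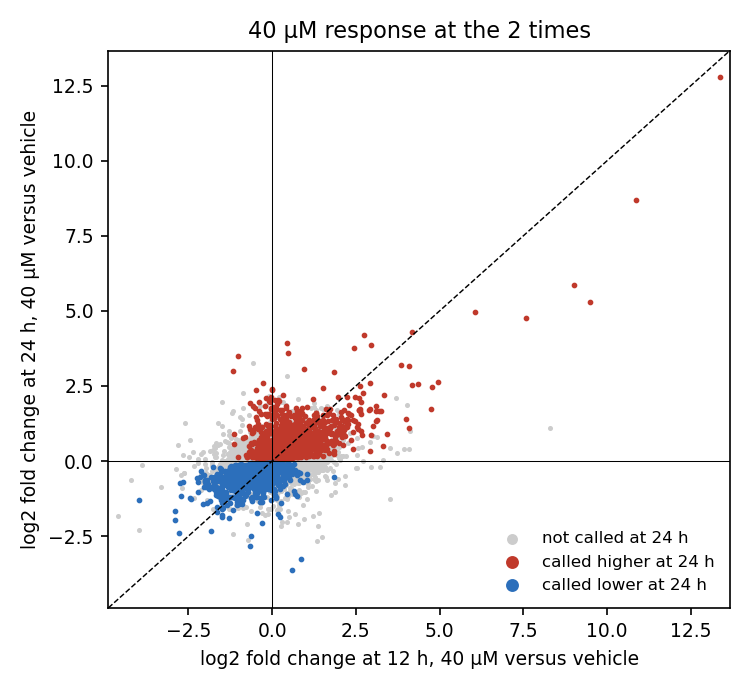
Fitted log2 fold change between 40 µM and vehicle at 24 h (vertical axis) against that at 12 h (horizontal axis), with 1 point for each transcript tested at both times, coloured by its call at 24 h, and a dashed line where the values are equal. The points at least 4-fold higher at 12 h lie mostly above 0 and under the line, and 71 of the 187 such transcripts are not drawn because they were not tested at 24 h.

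The plot of the changes at the 2 times can be set beside the summed levels of the same transcripts. The 638 transcripts at least 2-fold higher at 12 h summed to 16272 ± 231 TPM (SD, n = 5) in vehicle and 73492 ± 5861 TPM at 40 µM at that time. At 24 h they summed to 15562, 15848, 15608, 15591 and 15535 TPM in vehicle and to 38674, 38680, 38859, 36986 and 36278 TPM at 40 µM. All exposed libraries stayed above all vehicle libraries at 24 h, at a level well under that of 12 h. The choice of these transcripts requires the gap at 12 h, and its part in the lower level at 24 h was not tested. Abundant transcripts weigh most in such sums. The 20 abundant risers given above, 19 of them among the 638, summed at 24 h to 12210 TPM in vehicle and 34310 TPM at 40 µM. The sums do not show how many of the 638 stayed higher. Over all 638, the 30 µM libraries at 24 h reached 39729 ± 883 TPM and the 40 µM libraries 37895 ± 1182 TPM.

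The 415 transcripts at least 2-fold lower at 12 h summed to 11725 ± 157 TPM in vehicle and 4597 ± 560 TPM at 40 µM at that time. At 24 h they summed to 11863, 11823, 12006, 11676 and 11878 TPM in vehicle and to 7878, 7882, 8145, 8261 and 7410 TPM at 40 µM. The exposed libraries were thus all below vehicle and all above the 12 h exposed group. The choice of these transcripts requires the gap at 12 h, and its part in the smaller gap at 24 h was not tested. The 30 µM libraries at 24 h stood at 8140 ± 273 TPM and the 40 µM ones at 7915 ± 328 TPM.

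Read in the other direction, the calls of 24 h were mostly present at 12 h. Of the 2255 risers tested at 12 h, 1431 (63.5%) were called higher there and 199 lower, and of the 2335 fallers 1673 (71.6%) were called lower and 128 higher. For all transcripts tested at 12 h these shares were 24.9% in the direction of the risers and 26.1% in that of the fallers. The median change of the risers in their own direction was 0.28 log2 units at 24 h and 0.27 at 12 h, and that of the fallers 0.28 and 0.38. Of the 281 risers of at least 2-fold 269 were tested at 12 h, and of the 103 such fallers 99. Among these risers 183 (68.0%) were called higher at 12 h, 130 of them at 2-fold or more, and among these fallers 72 (72.7%) were called lower, 50 of them at 2-fold or more. Over all transcripts tested at 12 h, 3.81% were called higher and 2.48% lower at 2-fold or more.

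The effects at the 2 times were also tested against each other. A test of the difference between the effects at the 2 times, which uses the 24 h libraries too, called 5261 of 17512 transcripts (30.0%), 2767 (15.8%) with the more positive effect at 24 h and 2494 (14.2%) with the more negative one. Differences of at least 2-fold numbered 261 (1.49% of those tested) and 332 (1.90%). They were 316 and 451 with DESeq2, and 150 and 139 on log2(TPM + 1), where the order turned. The split between these directions was 63.3% to 64.2% more positive on the log2(TPM) scales in place of 52.6%. Among the risers 1131 were in this list, 555 with a smaller effect at 24 h and 576 with a larger one. Among the fallers 1052 were in it, 683 with a smaller effect and 369 with a larger one. Of the 281 risers of at least 2-fold, 55 had a smaller and 112 a larger effect at 24 h, and of the 103 such fallers 12 and 24. These transcripts were chosen by their 24 h estimates, which enter the test, so the counts are descriptions.

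Transcripts called at 24 h fell into classes by their 12 h call that differed in level. Risers called higher at both times (1431) had a median vehicle level of 15.8 ± 0.419 TPM and a median length of 3051 bases. The 625 risers tested and not called at 12 h had 11.7 ± 0.354 TPM and 2773 bases, and 289 of them had a larger effect at 24 h in the test of the difference. Over all transcripts in that test, 15.8% had the more positive effect at 24 h. The choice by a call at 24 h and none at 12 h enters the count of 289, which is a description. The 199 risers called lower at 12 h had 24.9 ± 0.899 TPM and 3063 bases, with a median change at 24 h of 0.19 log2 units.

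The fallers called lower at both times (1673) had a median level of 27.4 ± 0.326 TPM and a median length of 2735 bases. The 534 tested and not called at 12 h had 14.9 ± 0.266 TPM and 2595 bases. Of these, 200 had a larger effect at 24 h in the test of the difference. Over all transcripts in that test, 14.2% had the more negative effect at 24 h. The choice by a call at 24 h and none at 12 h enters the count of 200, which is likewise a description. The 128 called higher at 12 h had 23.1 ± 0.914 TPM, a median length of 3045.5 bases and a median change of 0.19 log2 units. Only 14 risers and 4 fallers were not tested at 12 h, and the 14 had a median level of 0.139 ± 0.0185 TPM.

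Few transcripts differed between the doses at 24 h. Between 40 and 30 µM, 597 of 16664 transcripts (3.58%) passed the test, with 284 (1.70%) more and 313 (1.88%) less abundant at 40 µM. At 2-fold or more there were 15 (0.0900%) and 4 (0.0240%). The share of higher calls was 47.6% and became 60.3% to 60.8% on the log2(TPM) scales. The count moved with the tool and with single libraries. It was 313 at an adjusted p under 0.05, 1470 with DESeq2 and 1094 in one fit over all 30 libraries. It was 1053 without 30 µM replicate 5 and 263, 361 and 378 without 40 µM replicates 2, 3 and 5. It was 344, 332, 275 and 276 without 30 µM replicates 1, 2, 3 and 4. Of the 20 largest risers with whole estimates, 8 were higher and 2 lower at 40 than at 30 µM, and of the 20 largest fallers 4 were lower and none higher at 40 µM. These comparisons use the same 40 µM libraries.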

How the data were processed

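Poly-A-enriched stranded libraries had been sequenced as paired reads. The authors pseudo-aligned the reads to the Ensembl transcriptome of Cavia porcellus with kallisto (version 0.42.4 per the submitters' processing notes, Ensembl release not given in the sources used here), which shares reads that match several transcripts. The deposited estimated counts, which need not be whole, are not normalised, and the deposited TPM values are corrected for effective length and sum to a fixed total. The deposited tables hold 25824 transcripts, 22156 of them with a count at 24 h. Of their identifiers 0 matched the gene table (assembly mCavPor4.1), so planned gene lists, cell type markers and sequences were not used.

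Estimated counts were rounded and tested per transcript with edgeR 4.0.16 (glmQLFit and glmQLFTest, TMM, filterByExpr) in R 4.3.3, with only the groups compared in the fit. The filter kept 16672 transcripts (64.6%) at 24 h. A call needed an adjusted p (Benjamini-Hochberg) under 0.1, as in the methods of the study. The biological coefficient of variation was 17.8% at 24 h. The change of effect was an interaction contrast over 20 libraries. Standard errors were taken as the log2 fold change divided by the root of the F statistic. CPM used TMM factors over all 30 libraries. For library measures the test was an exact permutation of the group labels, two-sided (SciPy 1.17.1), adjusted over 7 measures. Classes of size, level and length are descriptions without a test.

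Transcripts named were the 2 largest rises and 2 largest falls among those called, with a mean of at least 50 counts, no overlap between groups and whole estimates in all 30 libraries. An estimate within 1e-06 of a whole number was taken as whole. Values from 100000 counts on carry no decimals in the tables, so the 22 transcripts that reach this in a library may be wrongly taken as whole. The comparison, classes and rule were chosen with earlier results of these data known. Alternatives were DESeq2 1.42.0, RLE size factors, adjusted p under 0.05, limma 3.58.1 on log2(TPM + 1) or log2(TPM + 0.1), no filter, one fit over all 30 libraries, whole estimates only, a block on title-number position, other level baselines, 3 equal groups by level, and leaving out each library. The scripts were tested on simulated data. Counting error limits the precision of rare transcripts, and 5 libraries a group that of abundant ones. Counting error alone does not cover the assignment of shared reads.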

Additional observations from a re-analysis of the deposited data

Results flagged for a closer look

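Of 22 sets of 5 libraries examined, 4 had 1 library far from the others, where about 1.1 would be by chance. The 10 most abundant transcripts held 12.4% of the counts in replicate 5 of 40 µM at 24 h. Transcripts of 4 kb or more held 9.64% of the TPM in replicate 4 of 40 µM. The length minus effective length, an estimate of the mean fragment length, was 174.7 bases in vehicle replicate 2 at 24 h. ENSCPOT00000047407.1 measured 11.2 CPM in replicate 5 of 40 µM.

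The effect of 40 µM differed between 24 h and 12 h in 5261 transcripts by the edgeR interaction test. Among the 4 transcripts given by identifier, the fitted difference of the effect on ENSCPOT00000044307.1 was -2.19 log2 units (24 h minus 12 h), a description with no test. On ENSCPOT00000047407.1 the fitted difference was -3.17 log2 units (SE 0.99), and -1.88 and -1.27 on log2(TPM + 0.1) and log2(TPM + 1). The vehicle libraries held 3 counts in all at 12 h and 13 at 24 h, so the value depends on the prior count and is given with no test. The falls of ENSCPOT00000013715.3 and ENSCPOT00000003087.3 were smaller at 24 h by 0.94 and 1.22 log2 units. On log2(TPM + 1) these differences were 0.40 and 0.23 and not called.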

How the results depend on the processing

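With 1 library left out, 3995 to 4372 transcripts were called at 24 h, 7856 to 8643 at 12 h, 4757 to 5614 for the change of effect and 263 to 1053 between the doses, with 256 to 297 risers and 97 to 131 fallers of at least 2-fold. The share at or over 10 TPM was 58.0% to 61.6% of risers and 70.5% to 73.5% of fallers. The share of at least 2000 bases was 68.3% to 72.1% and 65.4% to 69.1%, and the share also called at 12 h 62.8% to 64.7% and 72.0% to 75.1%.

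Calls at 24 h numbered 4608, and 2631 of 6340 tested in a fit, with its own filter, of whole estimates only. Calls between the doses were 313 at an adjusted p under 0.05, 1470 with DESeq2, 1094 in one fit over all 30 libraries and 1 with the replicate block. Risers of at least 2-fold were 139 on log2(TPM + 1) and 144 with whole estimates, and fallers 49 and 54, with 205 by DESeq2 and 169 without a filter.

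The share at or over 10 TPM was 60.1% of risers and 71.4% of fallers. It was 57.8% and 67.9% with DESeq2, 55.2% and 69.1% in one fit over all 30 libraries, and 63.7% and 68.6% with levels from all 10 libraries. For risers it was 57.8% on log2(TPM + 1) and 62.3% with 12 h vehicle levels, and for fallers 74.5% at an adjusted p under 0.05. The share of at least 2000 bases was 70.5% of risers and 66.5% of fallers. It was 66.0% and 60.7% on log2(TPM + 0.1), 66.0% and 60.6% on log2(TPM + 1), and 62.1% and 56.2% with whole estimates. From the lowest to the highest level group it was 81.0%, 77.3% and 60.1% for risers and 77.5%, 74.9% and 57.3% for fallers. The share also called at 12 h was 63.5% of risers and 71.6% of fallers, and 55.2% and 74.6% on log2(TPM + 0.1), and 55.6% and 74.2% on log2(TPM + 1). For risers it was 66.5% in one fit over all 30 libraries and 60.0% with whole estimates, and for fallers 74.1% at an adjusted p under 0.05 and 67.6% with DESeq2. Without 40 µM replicate 4 the share of at least 2000 bases was 68.7% of risers and 69.1% of fallers, so that their order turned. With whole estimates only, risers (1344) outnumbered fallers (1287) at 24 h. The cause of these shifts was not tested. The log2 fold changes of the 4 transcripts given by identifier kept their sign.

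The labels give no replicate numbers that pair libraries. Libraries at the same position of the title number did not deviate together, with correlations of -0.04 to 0.05 in 5 pairs of vehicle and 40 µM at 24 h, -0.14 to -0.0039 in 4 pairs of these groups at 12 h and -0.17 to 0.02 in 4 pairs of 30 and 40 µM at 24 h. Of the pairs at 24 h, 1 of the 5 and 1 of the 4 correlated best with their own position, and 0 of the 4 at 12 h did. The replicate block on this position gave 4330 calls at 24 h, shares at or over 10 TPM of 62.1% and 73.8%, and shares also called at 12 h of 55.6% and 67.2%. Under it the dose difference of ENSCPOT00000047407.1 was 1.73 log2 units in place of 1.92, and not called.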
